A study of Mus musculus with 4 samples.

Results

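Early erythroid-biased progenitors are the first cells of the blood-forming marrow that carry RNA of the erythroid transcription factors while the genes of committed red-cell precursors are still low. They were chosen by their own RNA. Cells entered with 500 genes or more, 1000 gene UMIs or more and a mitochondrial share of 10% or less, and then had to meet 4 limits per 10000 gene UMIs. The sum of Klf1 and Gata1 was at least 2, the sum of Ermap, Rhd, Cldn13 and Sphk1 (called the erythroid sum below) was under 5, the sum of Pf4, Gp1bb, Gp9 and Ppbp was under 10, and the sum of Mcpt8, Prss34, Ms4a2 and Fcer1a was under 10. These measured values chose the cells, so the levels of these 14 genes are given as a description only. The limits were met by 648 of 7768 cells of the control library, 677 of 6341 cells of the Mll3-deleted library and 268 of 5649 cells of the Mll4-deleted library, in all 1593 of 19758 cells. In the Mll3/4-deleted library, 1 of 7408 cells met them, and that library enters no gene comparison.

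The study profiled CD45.2+Kit+ mouse bone marrow cells 10 weeks after transplantation, with RNA and surface antibodies read from the same droplets by 10x 3' chemistry (version 3.1). Kit, also called CD117, is the stem cell factor receptor that marks immature blood cells. The 4 groups, a control and cells with Mll3, Mll4 or both deleted, had 1 library each, and the sources used here do not give the strain, the host, the way the genes were deleted or the number of animals. No comparison between groups has a replicate, so each one compares libraries, and every 95% interval below covers counting error only.

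GATA1 is a zinc finger protein that binds GATA motifs and is required for red cells and megakaryocytes. KLF1 binds CACC-type motifs and drives globin, heme and membrane genes of the red-cell lineage. As progenitors commit to this lineage, GATA2 is replaced by GATA1, stem cell and platelet-lineage genes fall, and transferrin receptor, heme enzymes and blood-group proteins rise. Car1 encodes carbonic anhydrase 1 and Apoe the lipid carrier apolipoprotein E, both known from early erythroid progenitors of the mouse. MLL3 (gene Kmt2c) and MLL4 (gene Kmt2d) are the related histone methyltransferases that place H3K4 monomethylation at enhancers.

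The libraries differed in depth before any cell was chosen. The control, Mll3-deleted and Mll4-deleted libraries held 174795636, 161119914 and 36413830 gene UMIs, and the cells that passed the filter had medians of 16052, 17522 and 5221 UMIs. The chosen cells held 26426878, 28750833 and 3354140 UMIs, with medians of 41786, 42561 and 11068 per cell. The Mll4-deleted library thus gives the least precise levels, and 57 of its 268 chosen cells (21.3%) passed on a single Klf1 or Gata1 UMI, against 19 in the control and 24 in the Mll3-deleted library. Between 6 and 16 cell barcodes were shared by each pair of libraries, and none of them was shared by chosen cells of 2 libraries. Each library carried 2 hashtag antibodies, and the labels do not say what a hashtag marks. Levels below are CPM, the UMIs of a gene summed over the cells of a class per 1000000 gene UMIs of those cells. Female-specific Xist stood at 813, 787 and 0.30 CPM in the chosen cells of the 3 libraries, and the Y-linked Eif2s3y at 0, 0 and 85.3, so the sex of the cells and the deletion of Mll4 cannot be told apart.

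The deleted genes were read first. Kmt2c (chr5:25271798-25498783, minus strand, mm10) stood at 39.4 CPM in the chosen control cells, 19.6 in the Mll3-deleted and 42.0 in the Mll4-deleted library. Its level in the Mll3-deleted library was lower by a log2 ratio of -1.01 (interval -1.16 to -0.86). Within that library the cells with hashtag 1 had 15.2 CPM and those with hashtag 2 had 30.0, where the control had 39.3 and 38.9. Kmt2d (chr15:98831669-98871204, minus strand) stood at 20.3, 17.7 and 15.8 CPM, and its log2 ratio in the Mll4-deleted library was -0.36 (interval -0.80 to 0.05). Counts at the 3' end need not include a deleted exon, so the Kmt2d level does not check that label.

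The promoters of 5 genes that mark or act in these cells are shown because RNA of a GATA and a KLF factor chose the cells. Klf1 and Gata1 encode those factors, Apoe falls along the erythroid path, and Epor (the erythropoietin receptor) and Rhag (the Rh-associated glycoprotein) rise along it. Each run is the RefSeq sequence on GRCm38.p6 upstream of the start site, 5' to 3' on the gene's strand, up to 250 bases and without bases that GENCODE M21 places in an exon of the gene (54 bases for Klf1 and 23 for Rhag). Capitals mark matches on either strand to GATAA, whose reverse complement is TTATC, or to CCNCNCCC, whose reverse complement is GGGNGNGG.
Klf1, chr8:84901732-84901927, plus strand: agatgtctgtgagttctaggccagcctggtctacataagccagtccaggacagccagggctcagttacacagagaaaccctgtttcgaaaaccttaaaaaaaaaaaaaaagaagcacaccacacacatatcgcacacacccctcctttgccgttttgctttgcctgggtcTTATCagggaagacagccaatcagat
Gata1, chrX:7967911-7968160, minus strand: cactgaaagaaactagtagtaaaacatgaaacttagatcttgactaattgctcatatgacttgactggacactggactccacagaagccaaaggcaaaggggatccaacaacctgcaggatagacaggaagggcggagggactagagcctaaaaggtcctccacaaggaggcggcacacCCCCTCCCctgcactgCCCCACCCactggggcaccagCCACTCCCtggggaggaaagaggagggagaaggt
Apoe, chr7:19699189-19699438, minus strand: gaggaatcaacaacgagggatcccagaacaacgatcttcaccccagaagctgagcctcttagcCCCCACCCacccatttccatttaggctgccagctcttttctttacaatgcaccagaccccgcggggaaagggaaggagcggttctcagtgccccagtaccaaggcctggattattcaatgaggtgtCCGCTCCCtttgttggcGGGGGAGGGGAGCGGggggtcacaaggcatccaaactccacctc
Epor, chr9:21963577-21963826, minus strand: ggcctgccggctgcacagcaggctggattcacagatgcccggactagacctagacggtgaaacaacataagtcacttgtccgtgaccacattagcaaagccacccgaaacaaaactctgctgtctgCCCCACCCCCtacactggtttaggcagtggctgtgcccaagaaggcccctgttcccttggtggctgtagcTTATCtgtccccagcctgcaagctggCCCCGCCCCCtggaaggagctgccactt
Rhag, chr17:40810899-40811125, plus strand: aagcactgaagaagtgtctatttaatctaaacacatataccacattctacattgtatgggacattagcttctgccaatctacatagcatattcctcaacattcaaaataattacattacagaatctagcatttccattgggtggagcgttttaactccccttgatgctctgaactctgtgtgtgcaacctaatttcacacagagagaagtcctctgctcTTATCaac
The Klf1 run holds 1 GATAA match, which begins 80 bases before the start, and no CCNCNCCC match. Gata1 has 3 CCNCNCCC matches and no GATAA, and Apoe has 5 CCNCNCCC matches, some of which overlap, and no GATAA. Epor has 1 GATAA match, 54 bases before the start, with 4 CCNCNCCC matches in 2 overlapping pairs. Rhag has 1 GATAA match, 31 bases before the start. Over the 32851 RefSeq mouse promoters of 250 bases, 22.6% hold GATAA and 45.9% hold CCNCNCCC, so both are common and a match is only a description. The table of promoters held no entry for Car1.

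The cells carried the RNA that their name implies. Klf1 (chr8:84901928-84905291, plus strand) stood at 192 CPM in control, 187 in Mll3-deleted and 232 in Mll4-deleted cells, and Gata1 (chrX:7959260-7978071, minus strand) at 106, 103 and 137. These are the genes of the rule. Car1 (chr3:14766216-14808368, minus strand), which the rule did not use, stood at 3151, 2886 and 3018 CPM, against 399, 489 and 171 in the cells of the same libraries with a Klf1 and Gata1 sum under 2. Car1 was thus high in the chosen cells of all 3 libraries. Apoe (chr7:19696109-19699188, minus strand) stood at 418, 352 and 217, against 378, 362 and 45.9 in those other cells. Apoe therefore set the chosen cells apart from the remaining cells in the Mll4-deleted library, while in the other 2 libraries other cells carried it at a like level.

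To compare shares of cells across depths, each cell was thinned to 5000 UMIs, which kept 625, 649 and 196 of the chosen cells. Klf1 was then seen in 59.2%, 59.5% and 65.3% of control, Mll3-deleted and Mll4-deleted cells, against 1.15%, 2.24% and 0.92% of the neutrophil-gene cells of the same libraries, which should lack it. Before thinning, 93.5% of the control cells had a Klf1 UMI. The rule selected on Klf1, so these shares are a description only. Car1 was seen in 87.2%, 88.6% and 90.3% of the thinned cells, and Apoe in 64.3%, 59.9% and 43.4%, with 7.03%, 9.63% and 2.04% of neutrophil-gene cells for Apoe. Most chosen cells thus carried Car1, and the share with Apoe was lowest in the Mll4-deleted library.

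The 15 genes outside the rule with the largest ratio to the cells low in Klf1 and Gata1, taken as the lowest ratio of the 3 libraries, were Mt2, Tcrg-C1, Add2, Rhag, Car1, Slc25a21, Atp1b2, Slc38a5, Col5a1, Lmna, Tspo2, Epor, Spire1, Kcng2 and Nfia. Add2 encodes beta-adducin of the red-cell membrane skeleton, and it stood at 51.8, 44.0 and 74.5 CPM against 5.42, 7.36 and 4.08 in the low cells. Mt2, a metallothionein, stood at 281, 357 and 475 against 32.5, 54.8 and 23.4. Epor (chr9:21958897-21963506, minus strand) stood at 66.6, 66.7 and 76.0 against 11.03, 14.5 and 6.15. The rule selected on Klf1 and Gata1 in this contrast, so these values describe the cells and test nothing.

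Genes of later red cells were low, and some were near the floor. Alas2, the erythroid form of the first heme enzyme, had 0.11, 0 and 0.60 CPM, and the embryonic globins Hbb-y, Hbb-bh1 and Hba-x had none in any of the 3 libraries. Hba-a1, an adult alpha globin, stood at 3.63, 4.35 and 7.75, against 128, 101 and 31.7 in committed cells. Hbb-bt, an adult beta globin whose reads may be split with its near-identical neighbour Hbb-bs, stood higher at 19.6, 6.71 and 33.7, and 31.3% of the control cells had a UMI of it (5.76% after thinning, against 31.9% of committed cells). B-cell markers were low as well. The 10 B-cell genes of the list summed to 25.1, 53.1 and 22.7 CPM, against 13490, 11610 and 9261 in the B-gene cells of each library, and Pax5 was at 0 in the Mll4-deleted cells. The 20 stem and multipotent genes were not low in this way. They summed to 356, 316 and 419 CPM, against 95.3, 94.9 and 100.1 in committed cells and 1163, 1012 and 717 in the cells low in Klf1 and Gata1. Within that list Procr and Flt3 did not exceed 0.24 and 0.91 CPM in any library. Among T and NK genes, Nkg7 stood at 73.8, 49.1 and 40.8 while Cd3e was at 0.30, 0 and 0.

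Neutrophil RNA was present as well. The neutrophil granule gene S100a8 stood at 416, 647 and 3568 CPM in the chosen cells, against 22586, 17472 and 71324 in the cells low in Klf1 and Gata1. After thinning, 61.0%, 55.8% and 96.4% of the chosen cells had an S100a8 UMI. So did 56.7%, 52.6% and 96.1% of committed cells, and 86.9% of control and 88.9% of Mll3-deleted B-gene cells. A few chosen cells held much of the neutrophil RNA: 12, 19 and 16 cells with at least 100 UMIs per 10000 from S100a8, S100a9, Ngp, Ltf and Camp carried 62.0%, 80.4% and 80.3% of these UMIs. Without those cells S100a8 stood at 172, 155 and 789. The part that free RNA or doublets have in these levels was not tested.

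The erythroid sum ordered the chosen cells from progenitor-like to erythroid profiles. Cells below 1, from 1 to under 3 and from 3 to under 5 numbered 215, 192 and 241 in the control, 225, 170 and 282 in the Mll3-deleted and 129, 63 and 76 in the Mll4-deleted library. They are set here beside committed erythroid cells, those with the same Klf1 and Gata1 limit and a sum of at least 5 (555, 603 and 103 cells). These are ranges of a score and not types. In control cells Apoe fell along the ranges from 1510 to 409 and 119 CPM, with 34.9 in committed cells. Vim, the intermediate filament vimentin, went from 656 to 204 and 51.9, with 14.4 in committed cells. Gata2 (chr6:88193891-88207032, plus strand) went from 188 to 53.8 and 38.8, with 24.2 in committed cells. Both were highest in the cells with the lowest sum. Angpt1, the angiopoietin made by stem and early progenitor cells, went from 172 to 37.7, 13.5 and 4.25 over the same steps.

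The opposite order held for genes of the red cell. Car1 stood at 1387, 3407 and 3493 CPM in the control ranges and at 3300 in committed cells, so it reached its level early. Tfrc, the transferrin receptor, stood at 30.4, 115, 208 and 297 over the 4 steps, and Rhag at 11.9, 31.1, 64.3 and 112. Epor stood at 31.1, 63.5, 78.3 and 97.9. The cell cycle gene Mki67 had no such order, with 513, 493, 466 and 577. In the Mll3-deleted library Apoe stood at 1512, 296, 115 and 45.0 and Tfrc at 31.1, 119, 183 and 260. In the Mll4-deleted library Apoe stood at 574, 176, 45.2 and 32.6 and Tfrc at 89.5, 202, 338 and 381. Each of the 3 libraries thus had the same order of ranges for these genes, and Apoe was lower in the first range of the Mll4-deleted library than in that of the other 2. Median depth rose along the ranges in every library, in the control from 16413 to 44222 and 57838 UMIs, and its part in the order was not tested.

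**Figure D1:**
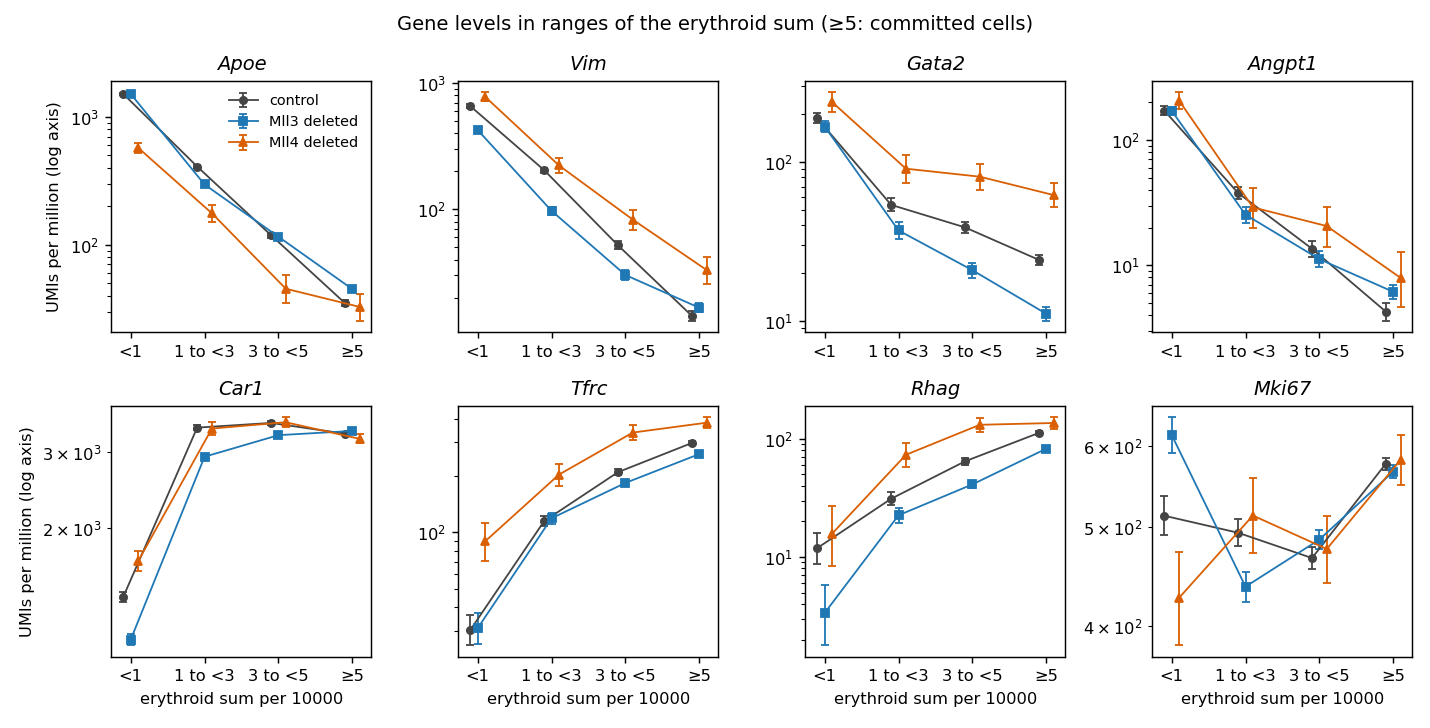
Levels of 8 genes (CPM, log axis) in early erythroid-biased progenitors grouped by their erythroid sum per 10000 UMIs, with committed cells at the right of each panel; points are libraries and bars are 95% Poisson intervals. Apoe, Vim, Gata2 and Angpt1 go down from left to right in the 3 libraries, for example control Apoe from 1510 to 34.9, and Tfrc and Rhag go up.

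Cells just outside the limits carried the same genes as those just inside, at other levels. In the control, 272 cells with a Klf1 and Gata1 sum from 1.5 to under 2 had Car1 at 2275 and Apoe at 763 CPM, and the 223 chosen cells from 2 to under 2.5 had Car1 at 2861 and Apoe at 537. At the erythroid limit, the 133 chosen control cells from 4 to under 5 had Apoe at 84.3, and the 136 cells from 5 to under 6 had 58.5. The Mll3-deleted library had 233 cells just below the first limit and 245 just inside, and the Mll4-deleted library had 69 and 56. Only 2, 1 and 26 cells of the 3 libraries were left out by the basophil and mast cell limit alone, and those of the Mll4-deleted library had Gata2 at 676 CPM.

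Surface antibodies, which the rule did not use, split the cells further. CD150 (SLAMF1), found on stem cells and on megakaryocyte and early erythroid progenitors, was above its threshold of 13.7 counts on 49.1% of control, 39.0% of Mll3-deleted and 56.0% of Mll4-deleted chosen cells. Committed cells were above it at 5.77%, 6.97% and 12.6%. CD48, a SLAM-family protein of progenitors, was above its threshold on 77.6%, 61.6% and 76.9% of the chosen cells and on 25.6%, 18.7% and 42.7% of committed cells. In all 3 libraries both proteins were thus more often above the threshold on the early cells. CD117 was above its threshold on 84.4%, 90.7% and 79.9%, against 68.1%, 77.6% and 76.7% of committed cells, so most of these cells carried the antigen they were sorted for. CD41, the platelet integrin, was above its threshold on 26.9%, 19.2% and 35.8%, and on 5.59%, 5.47% and 5.83% of committed cells. Among chosen cells with at least 5000 UMIs CD41 was above it on 27.7%, 19.7% and 20.9%, so the high value of the Mll4-deleted library rested on its shallow cells.

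Antibodies of other lineages were above their thresholds on fewer cells. CD34 was above on 3.55% of control, 9.60% of Mll3-deleted and 8.96% of Mll4-deleted chosen cells, CD16/32 on 4.32%, 8.12% and 8.58%, and Sca1 on 2.31%, 4.73% and 5.97%. CD11b was above on 1.39%, 2.81% and 6.34% and B220 on 1.23%, 3.69% and 1.87%. Each of these 5 was lowest in the control, where the thresholds were set. On neutrophil-gene cells the median counts were also lowest in the control for B220 (5, 8 and 9), Sca1 (8, 11 and 11) and CD11b (305, 335 and 391). For CD34 (6, 8 and 6) and CD16/32 (176, 219 and 171) the control did not have the single lowest median. With hashtag 1, CD11b was above on 0.49% of Mll3-deleted and 0.68% of control early cells. With hashtag 2, Sca1 was above on 1.42% and 1.61%, so the order did not always hold. Among early cells with at least 5000 UMIs CD34 was above on 3.36%, 9.71% and 4.08% in the 3 libraries. The granulocyte marker Gr1 was above its threshold on 2.93%, 6.06% and 15.7% in the 3 libraries. It was also higher on other classes of the Mll4-deleted library than on those of the control, at 8.74% against 3.60% of committed cells and 12.1% against 6.19% of megakaryocyte-gene cells. CD150 medians fell along the erythroid sum: 28, 19 and 6 counts in the control ranges and 3 in committed cells, 26, 9 and 5 in the Mll3-deleted library, and 33, 15 and 7 in the Mll4-deleted library.

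**Figure D2:**
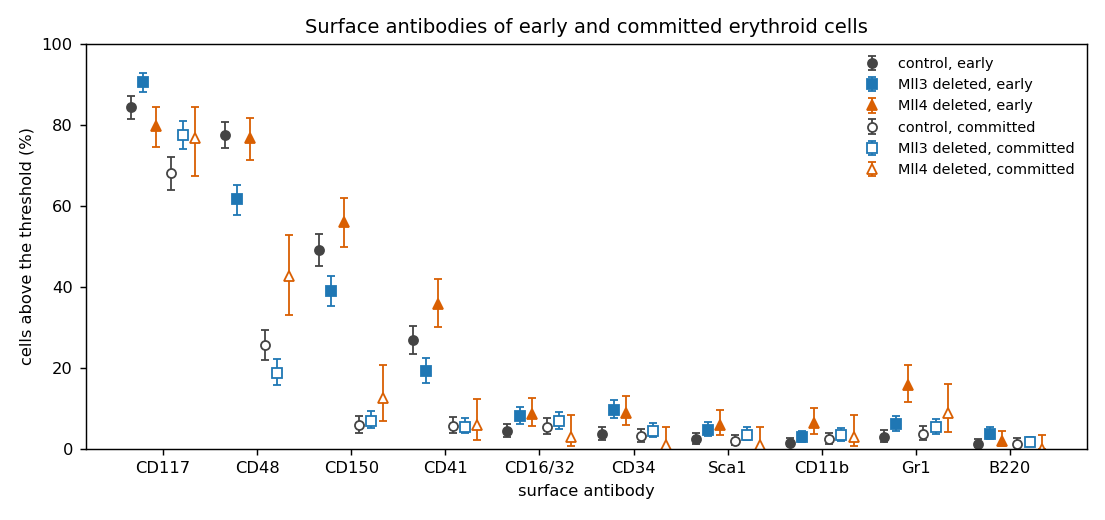
Percent of cells above the threshold of each surface antibody, for early erythroid-biased progenitors (filled) and committed erythroid cells (open) of each library, with exact binomial intervals. CD150, CD48 and CD41 are more often high on the early cells, with CD150 on 49.1% of early and 5.77% of committed control cells, and the lineage antibodies at the right are low in both.

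The CD150 antibody divided the RNA as well. Between cells above and cells at or below its threshold, 168 of 7215 genes (2.33%) were at least 1.5-fold higher above it in each of the 3 libraries and 33 (0.457%) were lower. Itga2b, which encodes the CD41 integrin, stood at 20.003 against 3.47 CPM in the control, 16.2 against 2.27 in the Mll3-deleted and 36.9 against 6.63 in the Mll4-deleted library. Apoe stood at 736 against 187, 666 against 200 and 414 against 49.2. Meis1, Mef2c, Fli1, Angpt1, Vim, Ctla2a and F2r were higher in the CD150-high cells of each library too. Among the genes that were lower, Ccne1, a cyclin of the G1 to S transition, stood at 25.3 against 85.2 CPM in the control. Tfrc stood at 91.7 against 196, and Rhag, Add2, Lmna and Cited4 were lower in all 3 libraries. The cells high in CD150 had fewer UMIs, with control medians of 28363 against 50052. Without the Mll4-deleted library, 256 genes were higher and 38 lower.

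Committed cells lie next to the early cells on the erythroid sum. Of 7111 genes, 232 (3.26%) were at least 1.5-fold higher and 100 (1.41%) lower in the early cells than in the committed cells of each of the 3 libraries, a contrast that the erythroid sum of the rule set up. The 10 genes highest by their smallest ratio were Ifitm1, Ctla2a, Apoe, Vim, Angpt1, Gmfg, Nkg7, Muc13, Igfbp4 and F2r. Ifitm1, an interferon-induced membrane protein, stood at 81.9, 76.4 and 54.3 CPM against 4.14, 6.30 and 0.47 in committed cells. Muc13, a transmembrane mucin, stood at 52.8, 51.1 and 73.0 against 9.45, 9.33 and 15.8. F2r, the thrombin receptor, stood at 31.0, 18.0 and 72.4 against 6.16, 4.09 and 16.8. Among those at the other end were Hbb-bs, Hba-a1, Tmem56, Hbb-bt, Hebp1, Hpn, Ctse, Mgst3 and Paqr9. Ctse, the erythroid protease cathepsin E, stood at 21.5, 18.3 and 51.9 against 114, 103 and 136.

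By list, the stem and multipotent genes had 6 of 7 tested members higher in the early cells of each library, and the megakaryocyte genes outside the rule had 3 of 4. All 4 tested globins, 6 of 11 heme enzymes and transporters and 8 of 19 early erythroid genes were lower, and 2 of those 19, Apoe and Muc13, were higher. Of all genes, 3.26% were higher and 1.41% lower. The level filter here averaged early and committed cells, so a gene could pass through the class in which it was high. Of the globins only Hbb-bt passed the filter over the early cells alone. The other globins entered through the committed cells, so their lower level was fixed in advance. Stem, multipotent and megakaryocyte genes that were low in committed cells could likewise pass through the early cells. Their counts of higher genes are therefore a description only. Among the 18 tested transcription factors 4 were higher. Gata2 stood at 65.9, 44.9 and 123 CPM against 24.2, 11.1 and 62.0, and Fli1, a factor of megakaryocytes, at 17.5, 11.8 and 23.8 against 3.18, 3.06 and 0.93. Fli1 passed the level filter only through the early cells and so had to differ. Tal1, the partner of GATA1, stood at 106, 94.2 and 125 against 117, 106 and 157, so it was close to the committed level in each library.

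The share of early erythroid-biased progenitors differed between libraries. They made up 8.34% of control cells (interval 7.74% to 8.98%), 10.7% of Mll3-deleted cells (9.93% to 11.5%), 4.74% of Mll4-deleted cells (4.20% to 5.33%) and 0.013% of Mll3/4-deleted cells (1 cell, interval up to 0.075%). Against control, the log2 ratio of shares was 0.36 (interval 0.21 to 0.50) for the Mll3-deleted and -0.81 (interval -1.01 to -0.61) for the Mll4-deleted library. Committed cells made up 7.14%, 9.51% and 1.82%, with log2 ratios of 0.41 and -1.97. Early cells were thus 53.9%, 52.9% and 72.2% of all early and committed cells, the highest in the Mll4-deleted library. With cells thinned to 5000 UMIs the ratios were 0.31 and -0.67.

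The same libraries differed in how many neutrophils they held. Neutrophil-gene cells made up 25.7%, 19.1% and 52.6% of the cells. Among all other cells the early erythroid-biased progenitors made up 11.2%, 13.2% and 10.0%, which gives log2 ratios of 0.23 (interval 0.09 to 0.38) and -0.17 (interval -0.36 to 0.03). Over this denominator the interval of the Mll4-deleted library reached past 0. A higher limit on Klf1 and Gata1, at least 4 per 10000, turned the direction of the Mll4-deleted ratio, with a log2 ratio of 0.60, and at least 2 UMIs of the pair gave -1.12.

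Hashtags within a library differed about as much as the libraries did. In the control the early cells were 7.75% of hashtag 1 cells and 8.62% of hashtag 2 cells, which were close. In the Mll3-deleted library they were 12.5% (interval 11.4% to 13.7%) and 8.15% (7.13% to 9.27%), and committed cells went the other way with 6.81% and 13.1%. In the Mll4-deleted library the early cells were 6.11% and 3.50% and committed cells 2.48% and 1.33%. Set against the control cells of the same hashtag, the Mll3-deleted log2 ratio was 0.69 with hashtag 1 and -0.080 with hashtag 2, and the Mll4-deleted ratio was -0.34 and -1.30. The higher share of the Mll3-deleted library was thus carried by its hashtag 1 cells.

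**Figure D3:**
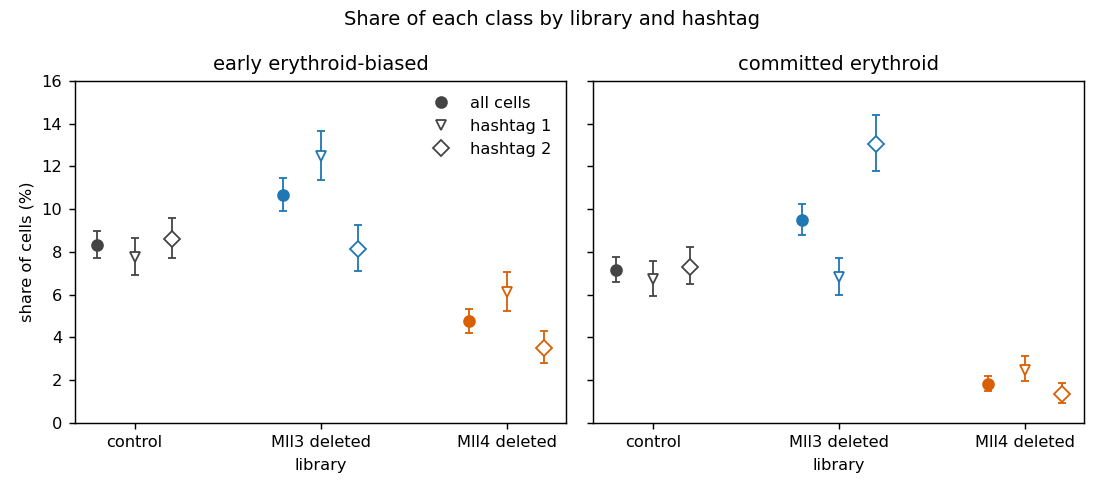
Share of cells (%) that were early erythroid-biased progenitors (left) or committed erythroid cells (right) in each library, over all cells and within each hashtag, with exact binomial intervals. The 2 hashtags of the control are close, at 7.75% and 8.62% on the left, while those of the Mll3-deleted library part in opposite directions in the 2 panels.

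Against control, the early cells of the Mll3-deleted library had few genes past 1.5-fold. Of 7215 genes with a mean of at least 10 CPM, 54 (0.748%) were higher and 108 (1.5%) lower with the counting interval on the same side, and the median log2 ratio of all tested genes was -0.05. Outside the rule, Car1 had a log2 ratio of -0.13 and Epor of 0.00. Klf1 and Gata1 had ratios of -0.04 and -0.03, a description only because the rule selected on both in each library. Of the 54 and 108 genes, 32 and 72 were past 1.5-fold the same way in committed cells, and 28 and 42 in the cells low in Klf1 and Gata1. The share of all genes past 1.5-fold in those classes is not given here, so these counts are a description only.

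Tjp1 (chr7:65296165-65527781, minus strand), which encodes the tight junction scaffold ZO-1, had the largest fall of the named genes. It stood at 35.8 CPM in control early cells (interval 33.5 to 38.2), at 4.45 in the Mll3-deleted (3.71 to 5.29) and at 39.4 in the Mll4-deleted library (32.9 to 46.7). The Mll3-deleted level was below the other 2 with no overlap of intervals, at a log2 ratio of -3.01 (interval -3.29 to -2.74). Hashtags 1 and 2 of that library had 2.19 and 10.4, against 38.0 and 34.6 in the control, so both were low. In committed cells Tjp1 stood at 47.1 in the control and 11.7 in the Mll3-deleted library, and in cells low in Klf1 and Gata1 at 15.7 and 2.68.

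The other 9 of the 10 lowest named genes differed in what they do. Fads2, the delta-6 fatty acid desaturase, stood at 27.8, 9.98 and 28.9 CPM in the control, Mll3-deleted and Mll4-deleted early cells, a log2 ratio of -1.48 for the Mll3-deleted library. Bex4, an X-linked gene, stood at 105, 39.4 and 60.8 (log2 -1.41 for Mll3-deleted cells). Gp5, a subunit of the platelet von Willebrand factor receptor, stood at 25.9, 11.4 and 53.1, low in the Mll3-deleted and high in the Mll4-deleted library. Il1rl1, the interleukin 33 receptor, stood at 24.1, 10.6 and 42.9, and Add3, gamma-adducin of the membrane skeleton, at 49.5, 23.1 and 58.7. Nrgn, a calmodulin-binding protein of neurons and platelets, stood at 31.5, 12.3 and 21.2, Fyb, an adaptor of integrin signalling, at 44.5, 20.4 and 47.4, and Wdr89 at 101, 45.4 and 89.1. Nutf2-ps1, a pseudogene whose reads can be shared with its parent, stood at 48.2, 14.6 and 27.4. All of these were low in the Mll3-deleted cells, and Gp5 and Il1rl1 were high in the Mll4-deleted cells. Their levels in other classes of cells are not given here, so none is shown to be particular to the early cells.

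CD48 was low as RNA and as protein. Cd48 RNA (chr1:171682009-171705258, plus strand) stood at 76.7 CPM in control, 41.9 in Mll3-deleted and 95.4 in Mll4-deleted early cells, a log2 ratio of -0.87 (interval -0.98 to -0.77) for the Mll3-deleted library. The CD48 antibody had medians of 575.5, 447 and 597.5 counts. Its Mll3-deleted hashtags were above the threshold on 61.0% and 59.0% of cells, against 81.9% and 75.6% in the control, and their RNA stood at 42.4 and 42.1. Both hashtags were thus below both control hashtags for the RNA and for the protein. Antibody counts carry no correction for staining depth: on neutrophil-gene cells the CD48 median was 163 in the control and 166 in the Mll3-deleted library. The median was 220 and 143 on committed cells, 436 and 299 on megakaryocyte-gene cells and 500 and 434 on cells low in Klf1 and Gata1. The lower CD48 protein was thus not particular to the early cells.

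Gata2 and Vim were lower in the Mll3-deleted early cells, and the hashtags did not move alike. Gata2 had a log2 ratio of -0.55 (interval -0.66 to -0.45), short of 1.5-fold, with 37.0 CPM in hashtag 1 and 72.7 in hashtag 2, against 65.8 and 65.9 in the control. Vim stood at 190 in the control and 101 in the Mll3-deleted cells, a log2 ratio of -0.91, and at 89.8 and 136 by hashtag. Apoe stood at 255 and 733 by hashtag, against 476 and 381 in the control, so its pooled log2 ratio of -0.25 joined a lower and a higher value. The CD150 antibody was above its threshold on 34.1% of hashtag 1 and 48.6% of hashtag 2 cells, against 50.2% and 48.6% in the control. Of the 108 lower genes, 101 were past 1.5-fold the same way in hashtag 1 and 52 in hashtag 2. Of the 54 higher genes, these counts were 34 and 33. The hashtag cells are part of the pooled cells that gave the calls, so some agreement was built in. The share of all genes past 1.5-fold by hashtag is not given here.

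Among the genes that were higher, Hist1h2ap, a replication-dependent histone H2A gene with near-identical copies, stood at 195 CPM in the control, 651 in the Mll3-deleted and 897 in the Mll4-deleted early cells. Its log2 ratio for the Mll3-deleted library was 1.74, and its reads may be split between copies. Pttg1, which encodes securin of the chromosome separation machinery, stood at 36.6, 101 and 90.6, with Mll3-deleted log2 ratios of 1.38 and 1.44 in the 2 hashtags. Gstp1, a glutathione transferase, stood at 31.2, 65.8 and 54.3, Polr2l, a small RNA polymerase subunit, at 55.0, 105 and 184, and the heat shock gene Hspa1b at 7.72, 16.8 and 37.6. All 5 were high in both deleted libraries, but Hspa1b reached the mean CPM needed for naming only through its high level in the Mll4-deleted library. As the levels of these 5 in other classes are not given, a shift of the whole library cannot be told from one of the early cells. Tspo2, an erythroid translocator protein, stood at 56.7, 94.9 and 59.0, high only in the Mll3-deleted library of the 3 (log2 0.74, interval 0.65 to 0.84).

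The other named genes that were higher, Cybb, Prtn3, Elane, Pglyrp1 and Wfdc21, belong to granulocytes. Cybb and Wfdc21 were below the control in both hashtags taken singly, with log2 ratios of -0.27 and -0.072 for Cybb and -0.29 and -0.24 for Wfdc21. Pglyrp1 turned to -0.061 with thinned cells and Elane to -0.027 as a mean of cell shares. Of 8 tested granulocyte and monocyte progenitor genes, 6 were higher in the Mll3-deleted early cells (list median 0.79), and 6 of 7 late neutrophil genes (list median 0.74). Of all genes, 0.748% were higher. As a mean of cell shares, 0 of the 16 lists had a median past 1.5-fold in the Mll3-deleted library. Prtn3 and Elane encode proteases of the early granule. Prtn3 stood at 59.1, 117 and 98.1 CPM, and at 59.2, 111 and 93.7 without the cells of high neutrophil sum. Elane stood at 41.5, 78.1 and 90.6, and at 41.5, 76.1 and 89.0 without them, and Mpo, myeloperoxidase, at 67.4, 120 and 127, and at 67.7, 110 and 130. These levels scarcely moved when those cells were left out. The rise was not particular to the early cells. The Mll3-deleted median of the granulocyte and monocyte progenitor genes was 0.63 in committed cells and 0.12 in cells low in Klf1 and Gata1. After thinning, Mpo was seen in 43.2% of control and 53.8% of Mll3-deleted neutrophil-gene cells, and in 46.6% and 55.1% of B-gene cells. Cybb, a subunit of the phagocyte oxidase, stood at 6.21, 13.2 and 49.2 and fell to 1.76, 1.89 and 7.57. Without those 19 cells the Mll3-deleted median of the late neutrophil genes was -0.28, and by hashtag it was -0.80 and -0.51, below 0 each time.

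Most of the other lists had no member past 1.5-fold in the Mll3-deleted early cells. None of the 18 tested transcription factors, 11 heme, 11 iron, 20 S phase, 20 G2/M and 15 ribosome biogenesis genes was past 1.5-fold, with list medians of -0.07, 0.06, -0.07, 0.02, 0.01 and -0.03 beside the -0.05 of all genes. The 5 tested immediate early genes had a median of -0.29 and the 12 of erythropoietin and Kit signalling one of -0.23, with no member past 1.5-fold. Of 19 early erythroid genes 1 was higher (Tspo2) and 2 were lower. Among the lower ones was Hemgn, a nuclear protein of blood progenitors, at 32.8 CPM in the control and 20.7 in the Mll3-deleted cells. Hbb-bt, the only globin that passed the level filter, stood at 19.6 and 6.71. Of 5 tested megakaryocyte genes 4 were lower (1.5% of all genes), namely Itga2b, Gp5, Cd9 and Nrgn, with a list median of -0.66. With hashtag 2 alone that median was 0.084. Among 15 tested COMPASS subunits only Kmt2c itself was past 1.5-fold.

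**Figure D4:**
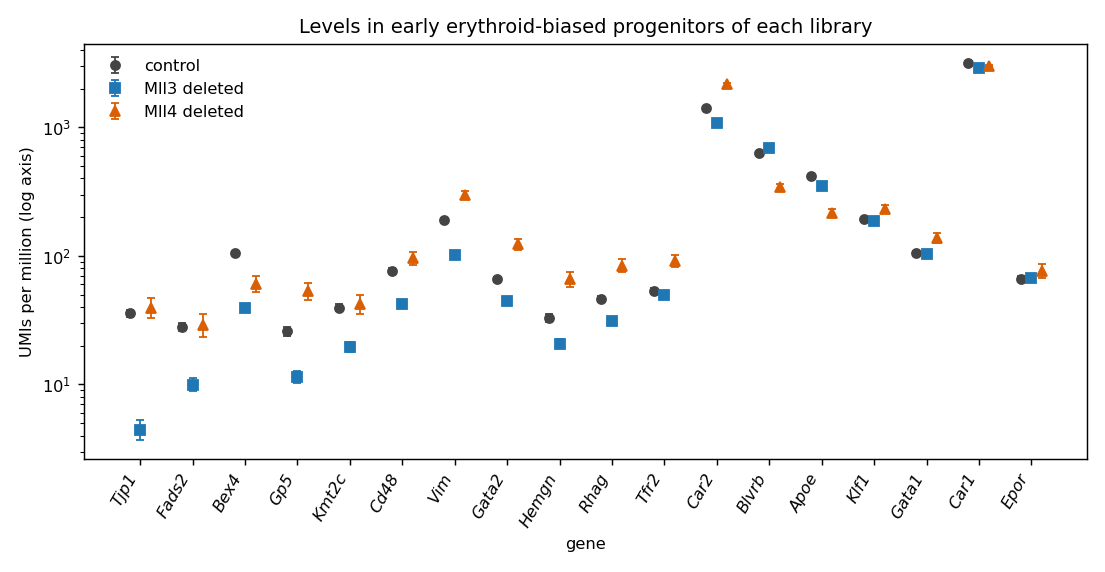
Levels of 18 genes (CPM, log axis) in early erythroid-biased progenitors of each library, with 95% Poisson intervals. Tjp1, Fads2, Bex4, Gp5, Kmt2c, Cd48 and Vim are lowest in the Mll3-deleted library (Tjp1 4.45 against 35.8). Gata2, Hemgn, Rhag, Tfr2 and Car2 are highest and Apoe and Blvrb lowest in the Mll4-deleted library. Klf1, Gata1, Car1 and Epor lie close together, where the rule selected on Klf1 and Gata1 in each library.

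The early cells of the Mll4-deleted library differed from control in many more genes. Of 7215 genes 1433 (19.9%) were higher and 418 (5.79%) lower, with an all-gene median log2 ratio of 0.19. With TMM scaling, which matches the bulk of the genes, 615 were higher and 1120 lower and the median was -0.080, so the balance of directions rests on the scaling. Of the 1433 and 418 genes, 1046 and 265 were past 1.5-fold the same way in committed cells, and 614 and 361 in the cells low in Klf1 and Gata1. Here too the share of all genes past 1.5-fold in those classes is not given, so the counts are a description only. The library also had a far lower depth, other sex-linked genes and more neutrophil RNA, and the part of these in the count was not tested.

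Gata2 was high and Apoe low. Gata2 stood at 123 CPM in the Mll4-deleted early cells (interval 111 to 135) and at 65.9 in the control (62.8 to 69.0), a log2 ratio of 0.90 (interval 0.74 to 1.05). Both hashtags were above the control, at 131 and 118 against 65.8 and 65.9. In the ranges of the erythroid sum Gata2 stood at 238, 90.8 and 80.9 against 188, 53.8 and 38.8 in the control, so it was higher at each step. It was the only one of 18 tested transcription factors past 1.5-fold in CPM, and with TMM scaling 1 was higher and 1 lower. Apoe stood at 217 against 418, a log2 ratio of -0.95 (interval -1.06 to -0.84), and by hashtag at 297 and 101 against 476 and 381. Apoe was thus low in both hashtags of that library, by unequal amounts.

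Red-cell genes went in both directions. Of 19 early erythroid genes 5 were higher and 3 lower, where 19.9% and 5.79% of all genes were, so the higher count was near the share of all genes. With TMM scaling 3 were higher and 4 lower. Car2, carbonic anhydrase 2, stood at 1425 CPM in the control and 2155 in the Mll4-deleted early cells, Rhag at 45.9 and 84.1, Hemgn at 32.8 and 66.2, and Mt2 at 281 and 475. Besides Apoe, Blvrb, the biliverdin reductase of red cells, stood lower at 626 and 341 (log2 -0.88, interval -0.96 to -0.79), and Icam4, a red-cell adhesion protein, at 73.8 and 45.9. Both Blvrb hashtags were low, at 334 and 344 against 612 and 646 in the control. Car1, Klf1 and Gata1 had log2 ratios of -0.06, 0.27 and 0.38. The rule selected on Klf1 and Gata1 in each library, so their ratios are a description.

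Iron genes were more often higher than lower in CPM, and this balance rested on the scaling. Of 11 iron genes 6 were higher (19.9% of all genes) and none lower, with a list median of 0.61, whereas with TMM scaling 1 was higher and 2 were lower, with a median of 0.34. Tfrc stood at 152 CPM in the control and 233 in the Mll4-deleted cells, Tfr2, the second transferrin receptor, at 53.1 and 91.2, and Slc11a2, the iron transporter DMT1, at 34.2 and 61.4. Ncoa4, the receptor for ferritin breakdown, stood at 30.7 and 63.2, while the ferritin chains Fth1 and Ftl1 had log2 ratios of -0.35 and -0.36. Of 11 heme genes Alas1, Cpox and Fech were higher and Alad was lower, at 143 and 89.7, or 2 higher and 2 lower with TMM scaling. The 3 of 11 were near the 19.9% of all genes. Fech, the enzyme that inserts iron, stood at 33.0 and 64.1.

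Replication and cholesterol genes were also among those higher. Of 20 S phase genes 9 were higher, with a list median of 0.51, beside the 19.9% of all genes. With TMM scaling 7 were higher, beside 615 of all 7215 genes. Mcm5 and Mcm6, subunits of the replicative helicase, stood at 147 and 216 CPM in the control and at 359 and 518 in the Mll4-deleted cells, while Mcm4 stood at 130 and 135 and Pcna at 329 and 328. The helicase subunits thus did not move alike. Of 12 cholesterol genes 7 were higher, with a list median of 0.64, among them Sqle at 21.9 and 46.5 and Hmgcs1 at 15.3 and 32.8. With TMM scaling 4 were higher and 1 was lower. The 20 G2/M genes had 4 higher and 1 lower with a median of 0.15, under that of all genes. Among 5 tested immediate early genes 3 were higher (median 0.60), with Jun at 49.6 and 119, and with cells thinned to 5000 UMIs the median was -0.16.

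Megakaryocyte genes were higher for 3 of 5 tested (19.9% of all genes), with a median of 0.90, and 15 of the 20 genes of that list did not pass the level filter. Itga2b stood at 10.4 CPM in the control and 20.6 in the Mll4-deleted cells, Gp5 at 25.9 and 53.1, and Mef2c at 60.6 and 113. Itga2b passed the level filter only through the Mll4-deleted library, so its higher level there was partly fixed in advance. After thinning, Itga2b was seen in 8.32% of control and 6.63% of Mll4-deleted early cells, so the share of cells with it was not higher. Itga2b and Gp5 were low in the Mll3-deleted library and high in the Mll4-deleted one, each against the same control. The rule's own basophil and mast cell gene Ms4a2 stood at 4.92 and 20.3, and Cpa3, the mast cell carboxypeptidase outside the rule, at 6.47 and 28.6. Cpa3 also passed the level filter only through the Mll4-deleted library and so had to differ. Of the COMPASS subunits, Wdr5 stood at 54.7 and 85.0 and Cxxc1 at 47.6 and 86.5, and the other 13 tested were within 1.5-fold. These 2 of 15 did not exceed the 19.9% of all genes that were higher. With TMM scaling 1 of the 15 was higher and 5 were lower, beside 615 higher and 1120 lower of all 7215 genes.

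Of the 10 highest named genes 9 were neutrophil or inflammatory genes, namely Wfdc21, S100a8, Cybb, Chil3, Hp, Ltf, Lcn2, S100a9 and Ngp. Wfdc21, Cybb and Hp reached the mean CPM needed for naming only through the Mll4-deleted library, so they had to be high there to be named. The 7 of 10 late neutrophil genes that passed the level filter were higher, with a median of 2.58, and of 2.01 without the 16 cells of high neutrophil sum. Their median was 0.80 in committed cells and 1.08 in cells low in Klf1 and Gata1. The rise was thus larger in the early cells but not particular to them. Cd177, at 3.41, 6.99 and 38.8 CPM, passed only through the Mll4-deleted library and so had to differ. Ltf, lactoferrin, stood at 41.4 CPM in the control and 269 in the Mll4-deleted early cells, and at 12.9 and 58.0 without those cells. Neutrophil-gene cells were 52.6% of that library. The tenth gene, Enah, a regulator of actin filaments, stood at 7.76 and 45.6, with hashtag log2 ratios of 4.05 and -0.95, so it was high in 1 hashtag only. Enah too reached the mean CPM needed for naming only through the Mll4-deleted library.

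Of the 10 lowest named genes 4 were replication-dependent histone genes, Hist1h3i, Hist2h2bb, Hist1h2be and Hist1h2an, while Hist1h2ap was high in the same cells. Hist1h3i stood at 41.8 CPM in the control and 16.7 in the Mll4-deleted early cells (log2 -1.32, interval -1.74 to -0.94). These genes belong to a family with near-identical copies. The others were S100a10, Bmyc, Clec4d, Pycard, Rnaset2a and Ddt. S100a10, the partner of annexin A2, stood at 264, 174 and 117 in the 3 libraries, and Pycard, the inflammasome adaptor ASC, at 89.0, 98.0 and 40.0. Bmyc, a relative of Myc, stood at 32.9, 34.9 and 14.6. S100a10 was thus low in both deleted libraries, whereas Pycard and Bmyc were low in the Mll4-deleted one.

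**Figure D5:**
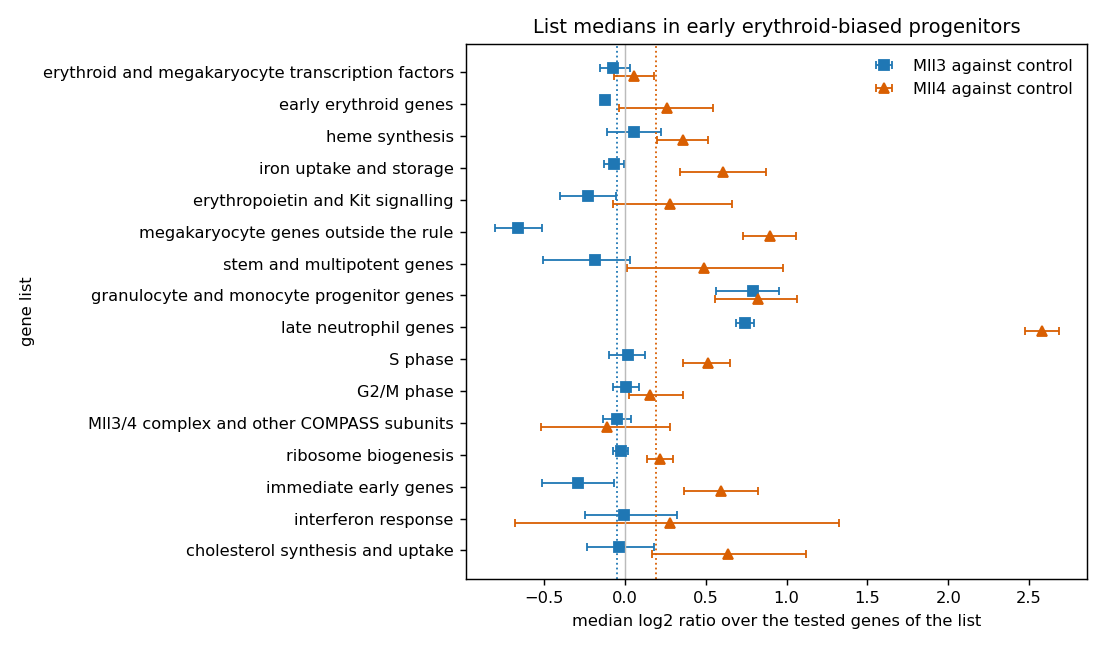
Median log2 ratio to control over the tested genes of each list in early erythroid-biased progenitors, for the Mll3-deleted (squares) and Mll4-deleted (triangles) libraries, with bars giving the counting interval of the gene or 2 genes at the median, and dotted lines at the median of all tested genes (-0.05 and 0.19). Granulocyte and late neutrophil genes lie to the right in both libraries, and megakaryocyte genes lie at -0.66 and 0.90.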

How the data were processed

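Gene and antibody UMIs were counted by the authors with Cell Ranger 6.1.2 per the file headers, on mm10 per the submitters' processing notes; the deposited values are raw UMI counts per barcode for 32285 genes and 15 antibody features (13 surface antibodies and 2 hashtags). Intron counting, cell calling and any doublet removal are not given in the sources used here. Members were chosen by the limits given above. The members, the 20 gene lists and the comparisons were chosen with earlier results of these data known.

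For each class and library the UMIs of its cells were added up and scaled to CPM, UMIs per 1000000 (Python 3.11.15, scipy 1.17.1, numpy 2.4.6). Levels have exact Poisson intervals, shares exact Clopper-Pearson intervals, ratios of counts exact conditional binomial intervals and ratios of shares Katz intervals, all at 95% and for counting error only. A gene was called at 1.5-fold with its interval on the same side, among 7215 genes with a mean of at least 10 CPM over the 3 libraries; a count under 3 was set to 3. With 1 library per group there was no test. Named genes were the 10 highest and 10 lowest called ratios of each comparison with a mean of at least 20 CPM, leaving out the 14 genes of the rule and Xist, Tsix, Y-linked, mitochondrial, ribosomal protein, Gm and Rik genes, together with the 15 genes highest against cells low in Klf1 and Gata1, the 10 at either end against committed cells, and list members. Antibody thresholds were the crossing of a 2-component Gaussian mixture on log10(count + 1) in the control; 3 antibodies with no usable crossing (CD201, CD127 and CD135) were left out. Neutrophil-gene cells had at least 500 UMIs per 10000 from the neutrophil genes and B-gene cells at least 20 from the B-cell genes. Doublet scores came from Scrublet in scanpy 1.11.5 and were used only as an alternative, with doublets kept otherwise; TMM factors came from edgeR 4.0.16. The calling script was tested on simulated data. Coordinates are from GENCODE M21, which matched 32158 gene IDs, and promoters from RefSeq on GRCm38.p6. A few genes that the rules name are not reported here.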

Additional observations from a re-analysis of the deposited data

How the results depend on the processing

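Alternatives changed the choice of cells (thinning to 5000 UMIs, Klf1+Gata1 at least 4, at least 2 Klf1+Gata1 UMIs, doublet scores removed, 5% mitochondrial UMIs, 1 hashtag, Car1+Apoe at least 2) or the levels (TMM, level filters, pseudocounts, mean of cell shares); ranges of the erythroid sum, cells with a neutrophil sum under 100 and leaving out the Mll4-deleted library were added after seeing the data. The Mll3-deleted share was 0.69 with hashtag 1 and -0.080 with hashtag 2, and the Mll4-deleted share 0.60 with Klf1+Gata1 at least 4, -1.12 with at least 2 UMIs, -0.34 with hashtag 1 and -1.30 with hashtag 2. The 162 Mll3-deleted calls were 250 thinned, 355 with Klf1+Gata1 at least 4, 283 and 289 by hashtag, 45 at a mean of 50 CPM, 896 with no filter and 331 with an erythroid sum under 1. The 1851 Mll4-deleted calls were 705 at a mean of 50 and 6674 with no filter. Lists with a median past 1.5-fold went from 3 in the Mll3-deleted library to 1 without doublet scores, with hashtag 2 or with a sum under 1, and to 0 as a mean of cell shares. In the Mll4-deleted library they went from 6 to 3 with Klf1+Gata1 at least 4, a mean of 50, a pseudocount of 5, the mean of cell shares or a sum under 1, to 2 with 2 UMIs or TMM, and to 10 with no filter. Against committed cells 369 genes were higher and 174 lower when thinned, and 133 and 60 with Klf1+Gata1 at least 4. Without the Mll4-deleted library 256 genes were higher in CD150-high cells. At the control median, CD150 was above on 75%, 70.8% and 83.2% and CD48 on 63.9%, 46.8% and 65.7%.

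Directions that turned, for the Mll3-deleted library, were the megakaryocyte median (0.084 with hashtag 2) and the late neutrophil median (-0.24 thinned, -0.33 without doublet scores, -0.80 and -0.51 by hashtag, -0.091 as a mean of cell shares, -0.76 with a sum under 1, -0.28 with a neutrophil sum under 100). Cybb turned to -0.016 thinned, -0.056 without doublet scores, -0.27 and -0.072 by hashtag, -0.46 as a mean of cell shares and -0.998 with a sum under 1, Pglyrp1 to -0.061 thinned and -0.44 with a sum under 1, Elane to -0.027 as a mean of cell shares, and Wfdc21 to -0.16 without doublet scores, -0.29 and -0.24 by hashtag and -0.21 with a sum under 1. For the Mll4-deleted library they were the immediate early median (-0.16 thinned) and Enah (-0.95 with hashtag 2). The cause of these changes was not tested. With the level filter at 50, only 9 of the 20 Mll3-deleted and 10 of the 20 Mll4-deleted named genes were still called; fewer genes pass that filter. No paired analysis was possible because each group had 1 library and no replicate numbers. Depth limits the Mll4-deleted library most, with 3354140 UMIs in its chosen cells.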
